A study of Mus musculus with 11 samples.

Results

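Transcripts of 8 genes of blood plasma and the complement system were followed across 11 mouse arrays, out of 7114 genes that the platform annotation names by a single symbol per probe. They were albumin (Alb), transthyretin (Ttr), mannose-binding lectin 2 (Mbl2), the antitrypsin-type serpin Serpina1e, ceruloplasmin (Cp), the C1 inhibitor (Serping1), the C1r protease (C1ra) and chemerin (Rarres2). All 8 had a value on every array, and each rested on 1 probe. They were chosen on these same values, for being high in 1 array that carries liver genes and, in some cases, also in the HRAS_MEL array. Their levels and differences are therefore descriptions, and no test is given.

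Plasma proteins are made mainly by hepatocytes, the parenchymal cells of the liver, and secreted into the blood. Complement is a chain of plasma proteases and binding proteins that marks microbes and damaged cells. Its classical pathway starts with C1, in which C1q binds the target and the proteases C1r and C1s cut the next components, and its lectin pathway starts with mannose-binding lectin. Albumin and transthyretin are also known as textbook markers of the liver lineage, whereas C1r, C1s, the C1 inhibitor, ceruloplasmin and chemerin are also made by other cells, among them fibroblasts, macrophages and fat cells.

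Each array compared the RNA of 1 mouse sample, labelled with Cy3, with a mouse embryo reference RNA, labelled with Cy5, and the series title asks about RAS isoforms in melanocytes. The cultured samples were HRAS_MEL, NRAS_MEL and D6_MEL, in which MEL was read as melanocyte from that title, VA_475, VA_MEF, 3T3 and Melan A, and the organs were Lung, Liver, Kidney and Heart. The descriptions give NRAS_MEL the code of D6_MEL with Nras added and HRAS_MEL a code of its own. They give no RAS allele, promoter, strain, age or treatment for any sample. Each group had 1 array, so no value below has a replicate error. The only spread within an array is that between probes of a gene with several probes. Its root mean square SD was 0.52 for a log2 level in HRAS_MEL, over 1805 such genes. For levels it was taken in that array alone, so it is only a rough guide to gaps between other arrays.

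Levels are log2 ratios of own RNA over reference RNA, centred on the median of each array, so 0 is the typical gene of that array and 1 unit is 2-fold. Neither the base of the logarithm, assumed here to be 2, nor the direction of the deposited ratios is stated. The direction was taken as likely from organ marker genes, and if it ran the other way every sign below would turn. Marker genes also went against several labels. The median of 6 hepatocyte enzyme genes was 4.41 in the array labelled Lung, against -0.83 in the array labelled Liver over the 5 measured there. The lung gene Sftpd stood at 5.75 in the array labelled Liver, against -1.25 in the array labelled Lung, and the heart gene Nppb at 4.42 in the array labelled Melan A, against -0.01 in the array labelled Heart. The array labelled Heart was close to D6_MEL instead, with a correlation of 0.922 across genes. In VA_MEF the median of 5 melanocyte markers was the highest of the 11 arrays at 0.71, and that of the fibroblast markers the lowest at -2.49. The 5 were mixed there, with Rab38 at 3.40, Mlph at 3.06, Rab27a at 0.71, Kit at -1.63 and Ednrb at -3.48. Mlph stood at 3.18 in D6_MEL. These arrays are therefore named by their labels, and none was moved to another group.

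For 5 of the 8 genes, RefSeq gave promoter windows of the mouse assembly GRCm38.p6, and the 250 bases before the start are shown for 4 genes because these stand for the 2 patterns described below, Alb and Serpina1e for liver-restricted genes and Cp and C1ra for those also high in HRAS_MEL. The windows are chr5:90460620-90460869 (plus strand) for Alb, chr12:103956898-103957147 (minus strand) for Serpina1e, chr3:19956999-19957248 (plus strand) for the downstream one of the starts of Cp, and chr6:124512371-124512620 (plus strand) for C1ra. Capitals mark matches, on either strand, to 6 motifs of liver and basal transcription factors: the HNF1 half-site GTTAAT, the C/EBP motif TTGCNNAA, the HNF4 half-site CAAAGT, the STAT motif TTCNNNGAA, the TATA box TATAAA and the CCAAT box CCAAT.
Alb: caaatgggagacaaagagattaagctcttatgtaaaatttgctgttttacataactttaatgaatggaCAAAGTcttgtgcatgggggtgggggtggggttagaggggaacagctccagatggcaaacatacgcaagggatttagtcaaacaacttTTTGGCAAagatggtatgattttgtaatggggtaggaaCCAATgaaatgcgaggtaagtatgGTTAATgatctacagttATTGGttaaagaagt
Serpina1e: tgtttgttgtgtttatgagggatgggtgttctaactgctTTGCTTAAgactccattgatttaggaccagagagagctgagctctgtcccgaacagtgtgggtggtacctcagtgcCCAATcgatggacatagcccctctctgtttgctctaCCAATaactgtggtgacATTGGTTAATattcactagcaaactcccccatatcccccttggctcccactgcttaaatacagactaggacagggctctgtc
Cp: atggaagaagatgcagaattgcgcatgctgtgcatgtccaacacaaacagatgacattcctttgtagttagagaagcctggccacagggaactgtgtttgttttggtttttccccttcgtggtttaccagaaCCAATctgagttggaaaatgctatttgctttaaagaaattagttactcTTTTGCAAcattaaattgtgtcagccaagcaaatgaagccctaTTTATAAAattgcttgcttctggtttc
C1ra: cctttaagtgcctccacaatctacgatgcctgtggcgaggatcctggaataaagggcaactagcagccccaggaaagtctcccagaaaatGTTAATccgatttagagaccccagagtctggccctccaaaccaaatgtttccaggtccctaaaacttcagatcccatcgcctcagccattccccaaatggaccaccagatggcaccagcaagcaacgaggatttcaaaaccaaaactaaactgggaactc
In Alb the HNF1 half-site lay at -32 to -27, counted back from the start with -1 as the last base before it, a C/EBP match at -94 to -87 and an HNF4 half-site at -182 to -177. Serpina1e had an HNF1 half-site at -78 to -73, which overlapped a CCAAT box on the other strand at -82 to -78, and a C/EBP match at -211 to -204. Cp had a C/EBP match at -70 to -63 and TATA matches on both strands that overlapped, at -25 to -20 and -27 to -22. C1ra had an HNF1 half-site at -160 to -155 and no match to the other motifs. The remaining capitals, in Alb, Serpina1e and Cp, are CCAAT boxes. Such matches are common: in 32851 mouse promoter windows of the same length, 6.43% held the HNF1 half-site, 9.56% the C/EBP motif, 12.6% the HNF4 half-site, 12.4% the TATA box and 33.8% the CCAAT box. The STAT motif, which 7.02% of the windows held, was not matched in any of the 6 windows searched, and the window of Mbl2 matched no motif. A further window of Cp, from a start upstream, held an HNF1 half-site at -194 to -189. A match in letters is a description and no evidence of binding, and the HNF1 half-site was found both in liver-restricted genes and in C1ra.

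Alb, the main carrier of fatty acids and hormones and the most abundant plasma protein, stood at 2.54 in the array labelled Lung. In the other 10 arrays it lay between -8.22 in 3T3 and -6.21 in Kidney, with -6.95 in the array labelled Liver, -6.59 in the array labelled Melan A, -7.68 in HRAS_MEL, -7.49 in NRAS_MEL, -7.46 in VA_MEF, -7.66 in VA_475, -7.18 in D6_MEL and -7.58 in the array labelled Heart. It was among the 5 lowest of all named genes in each of those 10 arrays. The array labelled Lung stood 8.75 above the next array, a ratio of 430-fold, and 10.01 above the median of the other 10, the largest such difference of the 7035 genes measured on all arrays.

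Ttr, the carrier of thyroxine and of retinol-binding protein, stood at 3.33 in the array labelled Lung. Kidney came next at -2.89, and the remaining 9 arrays spanned -6.37 in the array labelled Heart to -5.25 in the array labelled Liver. HRAS_MEL stood at -6.27, NRAS_MEL at -5.41 and D6_MEL at -5.82. Kidney was thus well below the array labelled Lung but 2.35 above the array that followed it. For Alb the same step from Kidney down to the array labelled Melan A was 0.38, below the spread between probes in HRAS_MEL, 0.52.

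Serpina1e, one of several near-identical mouse genes related to alpha-1 antitrypsin, had the same order at the top. It stood at 3.09 in the array labelled Lung, -3.62 in Kidney and -5.29 in NRAS_MEL. The other 8 arrays lay between -7.66 in VA_MEF and -6.53 in the array labelled Melan A, with HRAS_MEL at -7.61 and D6_MEL at -6.65. NRAS_MEL was the highest of the cultured lines, and it was separated from D6_MEL by 1.36. Related serpin transcripts may bind the same probe, and the probe sequence was not analysed here.

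Mbl2, which binds sugars on microbes and starts the lectin pathway of complement, varied by less than 2-fold outside 1 array. It stood at 6.35 in the array labelled Lung, the highest value of the 7096 genes measured there. The other 10 arrays lay within 0.93 of each other, between -1.18 in VA_MEF and -0.25 in 3T3, with HRAS_MEL at -0.73, NRAS_MEL at -0.44 and D6_MEL at -0.49. The range of 0.93 over these 10 was wider than the spread between probes in HRAS_MEL, 0.52.

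**Figure D1:**
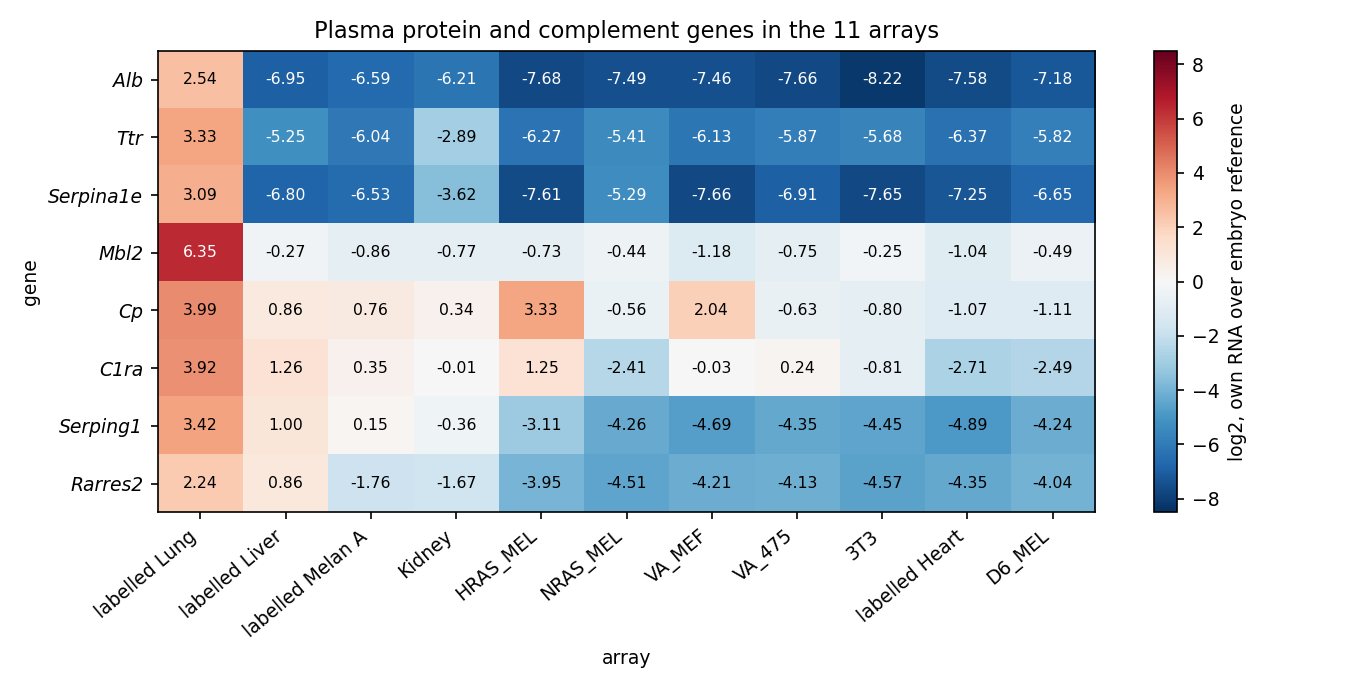
Log2 ratio of own RNA over the embryo reference for the 8 genes (rows) in the 11 arrays (columns), 1 probe and 1 array per cell, red above and blue below the array median. All 8 genes are red in the array labelled Lung, and Cp (3.33) and C1ra (1.25) are also red in HRAS_MEL.

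Levels of the other genes were not restricted to 1 array. Cp, the copper-binding ferroxidase that helps iron leave cells, stood at 3.99 in the array labelled Lung, 3.33 in HRAS_MEL and 2.04 in VA_MEF. It stood at 0.86 in the array labelled Liver, 0.34 in Kidney and 0.76 in the array labelled Melan A. The remaining 5 arrays were below 0, at -0.56 in NRAS_MEL, -0.63 in VA_475, -0.80 in 3T3, -1.11 in D6_MEL and -1.07 in the array labelled Heart. HRAS_MEL was thus 0.66 below the array labelled Lung and 1.29 above VA_MEF. Cp ranked 5 of 7094 genes in HRAS_MEL and 30 of 7096 in the array labelled Lung.

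C1ra, the protease that is activated first within C1, stood at 3.92 in the array labelled Lung, 1.26 in the array labelled Liver and 1.25 in HRAS_MEL. Values near 0 were found in the array labelled Melan A (0.35), VA_475 (0.24), Kidney (-0.01) and VA_MEF (-0.03), and 3T3 stood at -0.81. NRAS_MEL at -2.41, D6_MEL at -2.49 and the array labelled Heart at -2.71 formed the low end. These 3 lay closer together than the spread between probes in HRAS_MEL, 0.52. The step from 3T3 down to NRAS_MEL was 1.60.

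Serping1 encodes the serpin that inactivates C1r and C1s, and Rarres2 encodes chemerin, a secreted attractant of immune cells that is also a fat cell hormone. Serping1 stood at 3.42 in the array labelled Lung, 1.0 in the array labelled Liver, -0.36 in Kidney and 0.15 in the array labelled Melan A. HRAS_MEL followed at -3.11, and the 6 remaining arrays lay between -4.89 (the array labelled Heart) and -4.24 (D6_MEL), with NRAS_MEL at -4.26. Rarres2 stood at 2.24 in the array labelled Lung, 0.86 in the array labelled Liver, -1.67 in Kidney and -1.76 in the array labelled Melan A. Its 7 other values lay between -4.57 in 3T3 and -3.95 in HRAS_MEL, with NRAS_MEL at -4.51 and D6_MEL at -4.04.

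The orders of the arrays by Serping1 and by Rarres2 both had a wide step below the fourth array. It was 2.75 for Serping1, from Kidney down to HRAS_MEL, and 2.20 for Rarres2, from the array labelled Melan A down to HRAS_MEL. Rarres2 had a further step of 2.53, from the array labelled Liver down to Kidney. The macrophage marker median was also highest in the first 4 arrays. The median level of the 8 measured of 22 macrophage markers was 0.85 in the array labelled Lung, 0.41 in the array labelled Liver, -0.52 in Kidney and 0.39 in the array labelled Melan A, and it lay between -1.80 and -1.07 in the remaining arrays. The 3 C1q chains and Lyz2 are among those 8, and C1qa stood at 2.03 in the array labelled Lung, 0.73 in the array labelled Liver, -0.05 in Kidney and 1.37 in the array labelled Melan A. Other markers separated the same arrays. The median of 4 endothelial markers was -0.68 in the array labelled Lung, 2.0 in the array labelled Liver, 0.14 in Kidney and 0.75 in the array labelled Melan A, and -2.01 to -1.05 in the remaining arrays. The median of 18 proliferation genes was -1.99 to -1.45 in those 4 arrays and -0.52 to 0.26 in the remaining ones. The part of these lists in the result was not tested, and in such bulk RNA fewer cells of a type and less RNA per cell cannot be told apart.

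**Figure D2:**
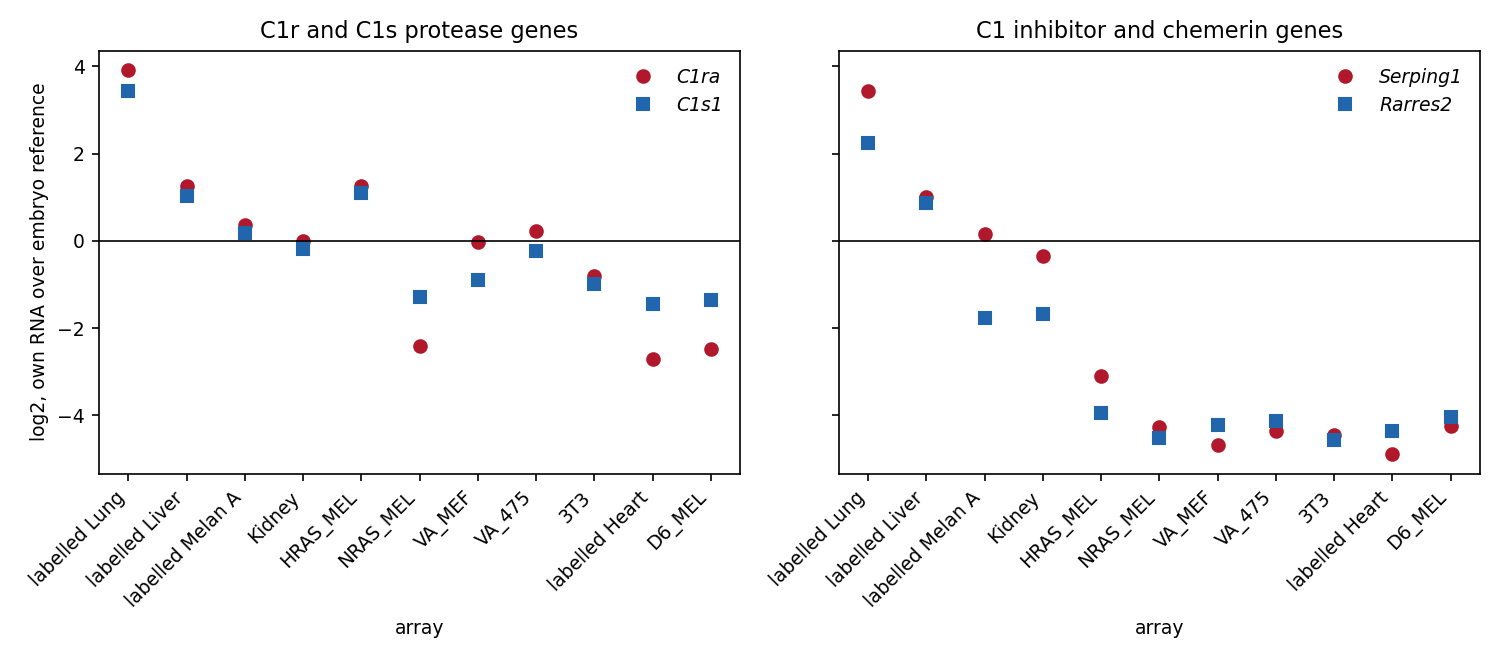
Log2 ratio of own RNA over the embryo reference in each of the 11 arrays (horizontal axis) for C1ra and C1s1 (left panel) and for Serping1 and Rarres2 (right panel), 1 probe per gene. In the left panel HRAS_MEL, at 1.25 and 1.09, lies beside the array labelled Liver; in the right panel the arrays labelled Lung, Liver and Melan A and the Kidney array lie above the rest.

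In the array labelled Lung, all 8 genes were at least 2-fold above the median of the other 10 arrays, as were 11.7% of the 7035 genes. The choice of the genes used this difference, so nothing is read from the count. The differences were 10.01 for Alb, 9.94 for Serpina1e, 9.18 for Ttr, 7.67 for Serping1, 7.09 for Mbl2, 6.32 for Rarres2, 4.10 for Cp and 3.93 for C1ra. Of the 8, 7 (all but Cp) were also at least 2-fold above the highest of the other 10 arrays, against 2.54% of all genes. Nothing is read from this count either, since the choice of the genes favoured it. The margin over the highest of the other 10 was 6.23 to 8.75 for Alb, Ttr, Serpina1e and Mbl2, and 1.38 to 2.66 for Serping1, C1ra and Rarres2. The spread between probes for this difference had a root mean square SD of 0.59. Hepatocyte enzymes stood beside these genes: 5 of the 5 measured on all arrays were at least 2-fold above that median, from 4.21 to 8.19. A further enzyme, Aldh1a1, lacked values on some arrays and went the other way, at -0.50 in the array labelled Lung and 1.41 in VA_475.

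HRAS_MEL was then set against the median of the other 10 arrays. Genes of the 8 at least 2-fold above it were called also high in HRAS_MEL. Alb, Ttr, Serpina1e and Mbl2, which were above 0 only in the array labelled Lung, were called liver-restricted. Cp lay 3.44 above it, C1ra 1.27 and Serping1 1.14, so 3 of the 8 passed 2-fold, against 4.04% of all genes. Serping1 was the lowest of the 3 that passed the limit of 1. Rarres2, the next, was far from that limit at 0.13, with rank 2607 of 7035 genes. Rarres2 was given neither name. It also stood at 0.86 in the array labelled Liver, -1.67 in Kidney and -1.76 in the array labelled Melan A. Its remaining values were at most -3.95. Mbl2 at -0.11, Alb at -0.36, Ttr at -0.52 and Serpina1e at -0.88 lay within 2-fold. Serping1 counts as higher only relative to that median, since its level in HRAS_MEL was 8.64-fold below that of the reference RNA. Quantile normalization put Serping1 at 0.68, below the limit.

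**Figure D3:**
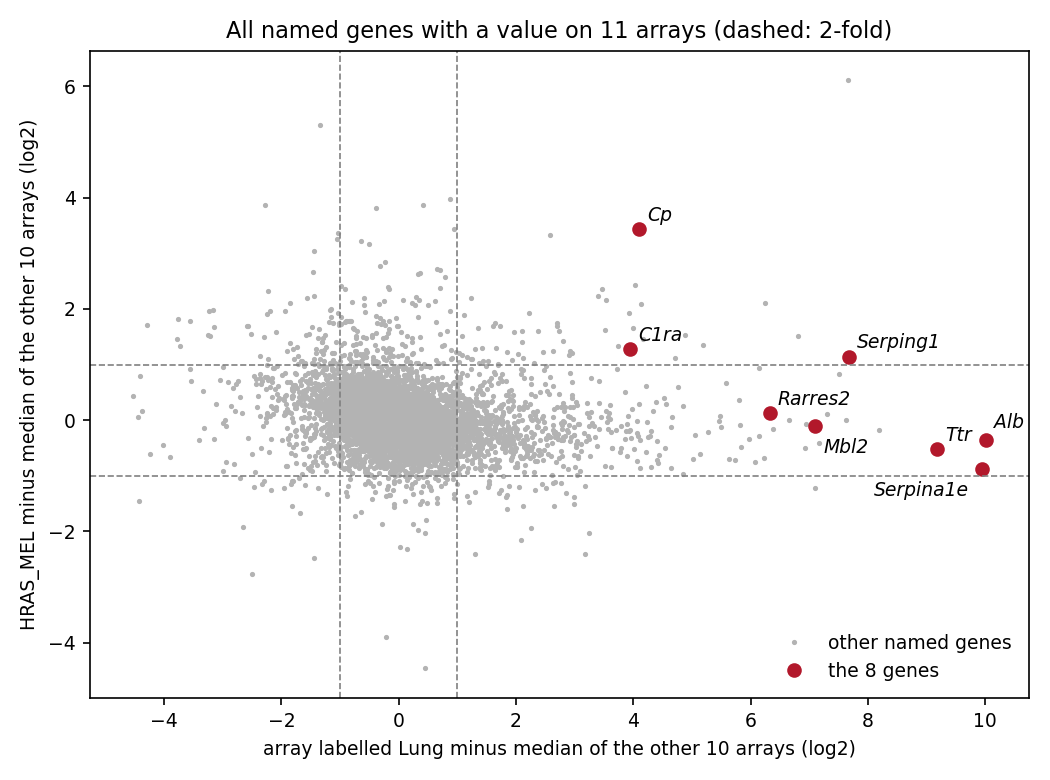
Difference of the array labelled Lung (horizontal axis) and of HRAS_MEL (vertical axis) from the median of the other 10 arrays, in log2 units, for the 7035 genes measured on 11 arrays; dashed lines mark 2-fold. Cp lies apart from the other 7 genes at 4.10 and 3.44, and Alb, Serpina1e and Ttr lie at the far right with values below 0 on the vertical axis.

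HRAS_MEL was compared directly with D6_MEL, the MEL array with no RAS name. Cp was higher by 4.44, or 21.8-fold, and C1ra by 3.74, or 13.4-fold, which ranked 8 and 16 among 7078 genes. Serping1 was higher by 1.13, or 2.19-fold, and ranked 301. These 3 of the 8 passed 2-fold upward, as did 5.23% of all genes, and 0 were at least 2-fold lower, against 5.91% of all genes. Rarres2 differed by 0.08, Mbl2 by -0.24, Ttr by -0.45, Alb by -0.50 and Serpina1e by -0.96. The spread between probes had a root mean square SD of 0.51, so Cp and C1ra lay far outside it, Serping1 and Serpina1e outside it by less, and Rarres2, Mbl2, Ttr and Alb inside. Hepatocyte enzymes, 6 of 38 measured, had a median difference of 0.27, and 1 of them, Asl at 1.11, was at least 2-fold higher.

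The comparison with NRAS_MEL shares the HRAS_MEL array with the one above, so its values are given side by side and not as further evidence. HRAS_MEL was higher by 3.89 for Cp, 3.66 for C1ra and 1.15 for Serping1, with ranks of 4, 7 and 264 among 7073 genes, so 3 of the 8 passed 2-fold upward, as did 5.08% of all genes. Serpina1e, at -2.31 or 4.97-fold lower, was the only one of the 8 at least 2-fold lower, against 4.27% of all genes. Ttr at -0.86, Mbl2 at -0.29, Alb at -0.20 and Rarres2 at 0.56 lay within 2-fold.

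NRAS_MEL and D6_MEL differed little in these genes. Serpina1e, at 1.36 or 2.56-fold, was the only one of the 8 at least 2-fold higher in NRAS_MEL, against 2.46% of all genes. Both values were far below the reference, at -5.29 in NRAS_MEL and -6.65 in D6_MEL, and quantile normalization gave a difference of 0.75. Cp differed by 0.56, Ttr by 0.41, C1ra by 0.08, Mbl2 by 0.05, Serping1 by -0.02, Alb by -0.30 and Rarres2 by -0.48. The spread between probes had a root mean square SD of 0.53, so 6 of these 7 lay inside that spread and Cp just outside.

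**Figure D4:**
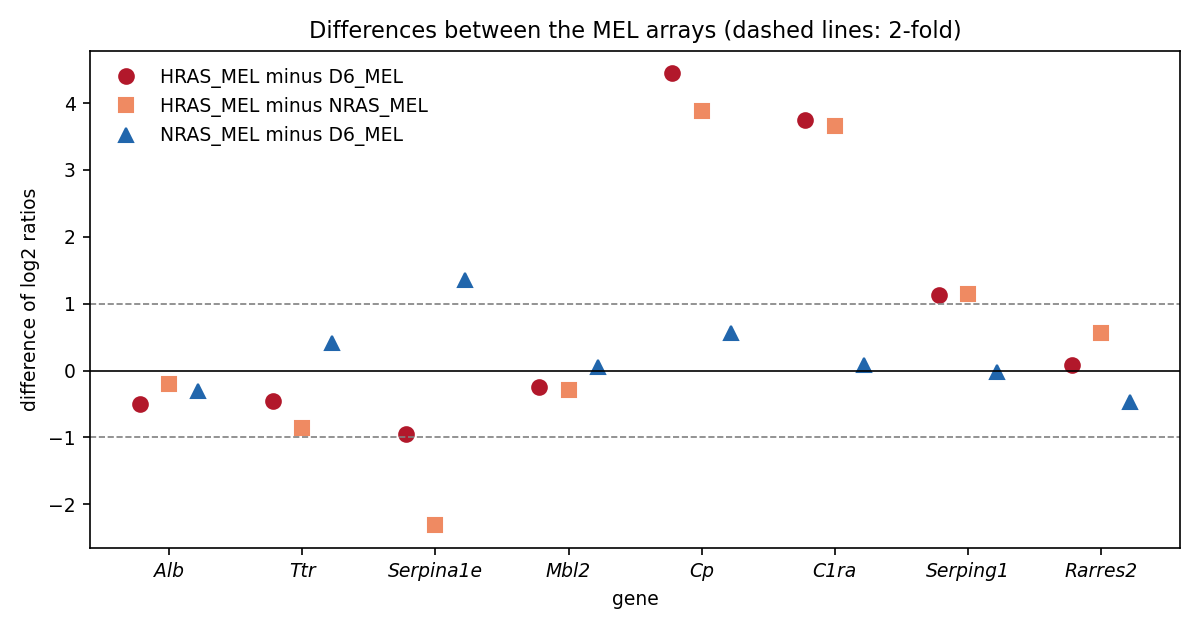
Differences of log2 ratios between the MEL arrays for each of the 8 genes, as HRAS_MEL minus D6_MEL (circles), HRAS_MEL minus NRAS_MEL (squares) and NRAS_MEL minus D6_MEL (triangles), from 1 array each; dashed lines mark 2-fold. Cp and C1ra lie between 3.66 and 4.44 in both HRAS_MEL differences and at 0.56 and 0.08 in NRAS_MEL minus D6_MEL.

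Other control arrays changed some of these values. Against the array labelled Heart, Serping1 in HRAS_MEL differed by 1.78 and Serpina1e in NRAS_MEL by 1.95. Against the array labelled Melan A, Serping1 turned to -3.26 and C1ra, at 0.90, lay within 2-fold, while Cp differed by 2.57. With that control, 1 of the 8 genes was at least 2-fold higher and 4 lower in HRAS_MEL. Over all genes, 840 were then higher and 1027 lower, against 370 and 418 with D6_MEL as control.

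Markers of other cell types differed between the MEL arrays as well. Of the 13 measured of 22 fibroblast markers, 6 were at least 2-fold higher and 2 lower in HRAS_MEL than in D6_MEL, beside 5.23% and 5.91% of all genes. Their median was 0.54, against -0.01 for all genes. Biglycan (Bgn) differed by 4.91, the matrix Gla protein Mgp by 4.87, Col1a2 by 3.52, Col3a1 by -1.05 and Col6a1 by -3.29. Mgp and Bgn were also higher in NRAS_MEL than in D6_MEL, by 3.07 and 2.21. The median level of the list was -0.82 in HRAS_MEL, -1.46 in NRAS_MEL and -2.02 in D6_MEL. All 5 measured of 21 melanocyte markers were lower in HRAS_MEL than in D6_MEL, with a median difference of -0.83 and 1 of them, Rab38 at -1.05, at least 2-fold lower. The part of either list in the values of Cp, C1ra and Serping1 was not tested. In 3T3, where the fibroblast median was the highest of the 11 arrays at -0.21, Cp stood at -0.80, C1ra at -0.81 and Serping1 at -4.45, all below their values in HRAS_MEL. In VA_475, with a fibroblast median of -0.80, Cp stood at -0.63, C1ra at 0.24 and Serping1 at -4.35. In VA_MEF, where that median was the lowest at -2.49, Cp stood at 2.04, C1ra at -0.03 and Serping1 at -4.69.

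The other complement genes were taken from lists by function. In HRAS_MEL minus D6_MEL, 5.23% of all genes were at least 2-fold higher and 5.91% lower, and these shares stand beside every list count of that difference below. Of 24 genes for the start of complement and its convertases, 6 were measured. Of these 6, 3 were at least 2-fold higher and 0 lower in HRAS_MEL than in D6_MEL, with a median of 0.60. The 3 were C1ra, C1s1, the protease that C1r activates, at 2.44, and C1qc at 1.25. Without C1ra and Mbl2, which were chosen on these values, 2 of 4 were higher. The remaining C1q chains, C1qa at -0.71 and C1qb at -0.05, lay within 2-fold. C1s1 stood at 1.09 in HRAS_MEL, -1.28 in NRAS_MEL and -1.35 in D6_MEL, with 3.43 for the array labelled Lung. C1qc was below the reference in all 3, at -1.10 in HRAS_MEL, -0.96 in NRAS_MEL and -2.35 in D6_MEL, so it was higher in NRAS_MEL as well. Leaving out C1ra and Mbl2, which were chosen for it, 4 of 4 were at least 2-fold above the median of the other arrays in the array labelled Lung, with a median difference of 3.32, beside 11.7% of all genes.

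Of 18 regulators of complement 5 were measured, and 2 were at least 2-fold higher in HRAS_MEL than in D6_MEL and 0 lower, with a median of 0.14. These were Serping1 and clusterin (Clu), a chaperone that also blocks the terminal complex, at 2.84. Without Serping1, which was chosen on these values, 1 of 4 was higher. Clu stood at 0.10 in HRAS_MEL, -1.35 in NRAS_MEL and -2.74 in D6_MEL. The protease factor I (Cfi), which inactivates C3b and C4b, followed the liver-restricted genes instead, at 3.66 in the array labelled Lung and -4.10 to -2.01 in the other 10, with a difference of 0.06 between HRAS_MEL and D6_MEL. The decay-accelerating factor Cd55 differed by -0.16 and Cr1l by 0.14.

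Plasma carriers and inhibitors were taken in the same way. Of 20 carriers 6 were measured, with a median difference of -0.48 between HRAS_MEL and D6_MEL, and Cp and selenoprotein P (Selenop), the selenium transporter, were the 2 that were at least 2-fold higher. Without Alb, Ttr and Cp, which were chosen on these values, 1 of 3 was higher. Selenop stood at -1.27 in HRAS_MEL, -3.54 in NRAS_MEL and -2.69 in D6_MEL, against 3.93 in the array labelled Lung. The corticosteroid carrier Serpina6 resembled Alb, at 2.28 in the array labelled Lung and -3.92 to -2.33 in the other 10. Of 34 serpins and other plasma inhibitors 7 were measured, and Serping1 was the 1 at least 2-fold higher and Serpinf1, at -1.32, the 1 lower. Without Serping1 and Serpina1e, which were chosen on these values, 0 of 5 were higher. The inter-alpha-trypsin inhibitor chain Itih1 was 5.49 above the median of the other arrays in the array labelled Lung, and the collagen chaperone Serpinh1 was -3.16 from it.

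Lipoprotein genes were mixed. Of 19 listed genes of lipoprotein metabolism 7 were measured, and 5 were at least 2-fold above the median in the array labelled Lung, as were 11.7% of all genes. Apob at -0.02 and Apobec1 at 0.87 lay within 2-fold. Lipoprotein lipase (Lpl), counted among the 5, was highest in the array labelled Melan A at 4.56 and stood at -2.55 in the array labelled Lung. In HRAS_MEL minus D6_MEL 0 of the 7 were higher and 1 was lower, Apoa1 at -1.25. Apoa1, the main protein of HDL, stood at 1.89 in the array labelled Lung, -6.05 in HRAS_MEL, -4.85 in NRAS_MEL and -4.80 in D6_MEL. Of 27 coagulation genes 7 were measured, and 1 was at least 2-fold higher and 2 were lower in the array labelled Lung, with a median of -0.19, so the share that was higher is near the 11.7% of all genes. The higher one was fibronectin (Fn1), at 1.97 above the median there and 1.58 above it in HRAS_MEL. In HRAS_MEL minus D6_MEL, Fn1 differed by 1.75, the plasminogen activator Plat by -1.36 and the urokinase receptor Plaur by -1.23.

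Ceruloplasmin is an acute phase protein, one whose plasma level rises with inflammation, and it also belongs to copper and iron handling. Of 23 acute phase genes 3 were measured, and besides Cp the lipopolysaccharide-binding protein Lbp differed by 1.08 and lipocalin 2 (Lcn2) by -0.59 between HRAS_MEL and D6_MEL. Lbp was also higher in NRAS_MEL than in D6_MEL, by 1.18. Of 28 genes of acute phase signalling 9 were measured, with a median of 0.40, and the 2 at least 2-fold higher were the feedback inhibitors Socs3 at 1.79 and Nfkbia at 1.30. Both were also higher in NRAS_MEL than in D6_MEL, by 1.09 and 1.02, where Cp differed by 0.56. Of 26 copper and iron genes 16 were measured, with a median of 0.30. At least 2-fold higher were 4 and lower 0, beside 5.23% and 5.91% of all genes, and without Cp 3 of 15 were higher. The 4 were Cp, the metallothioneins Mt2 at 4.09 and Mt1 at 2.65, which bind copper and zinc, and the ferritin heavy chain Fth1 at 1.61. Mt2 and Mt1 were also higher in NRAS_MEL than in D6_MEL, by 2.71 and 1.42. Slc40a1, the iron exporter whose work ceruloplasmin aids, differed by -0.13 and stood at -3.48 in HRAS_MEL and -3.35 in D6_MEL.

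Of 19 liver transcription factors 4 were measured. Of these, 3 were at least 2-fold above the median in the array labelled Lung, as were 11.7% of all genes. They were the oxysterol receptor Nr1h3 by 4.33, Nr5a2 by 2.77 and Onecut1 by 1.39. Nr1h3 also stood at 1.69 in the array labelled Liver, 1.53 in Kidney and 0.51 in the array labelled Melan A. Its remaining values lay between -2.05 in VA_MEF and -1.02 in HRAS_MEL. In HRAS_MEL minus D6_MEL 0 of the 4 were higher, and Nr0b2, at -1.52, was the 1 at least 2-fold lower. Of the chemerin system, the receptor Gpr1 was measured beside Rarres2 and lay between -0.54 and 0.08 in all 11 arrays.

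The genes with the most similar profiles were named by their Pearson correlation over the 11 arrays, which share the reference RNA and, for most of these genes, 1 high array. The 8 genes themselves were left out of this search. Outside them, Alb was closest to the liver enzymes Tdo2 (0.993), Bhmt (0.992) and Mat1a (0.985), and Ttr to Timd2 (0.988), Cfi (0.986) and Akr1c14 (0.983). Mbl2 was closest to Chst10 (0.996), the organic anion transporter Slco1b2 (0.993) and Mark3 (0.993). Outside the 8, Serpina1e was closest to Cfi (0.968), Timd2 (0.968) and Akr1c13 (0.966), all below its correlation with Ttr (0.984). Cp had weaker neighbours, Retreg3 (0.930), Pdcd4 (0.922) and Usp40 (0.901), while C1ra was closest to C1s1 (0.947), Ttc27 (0.947) and Gstm1 (0.912). Outside the 8, Serping1 was closest to Nr1h3 (0.976), Ube2o (0.975) and Ces1d (0.969), and Rarres2 to Cmtm8 (0.985), Ube2o (0.966) and Mgst1 (0.960). The correlation between Serping1 and Rarres2 was 0.971, which lies among these values.

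Leaving out the array labelled Lung changed the pairs unequally. Alb and Mbl2 correlated at 0.969 over 11 arrays and at -0.170 over the other 10, so their likeness rested on that array. Serping1 and Rarres2 kept 0.948, against 0.971 with it, Serpina1e and Ttr 0.883, against 0.984, and C1ra and Cp 0.736, against 0.846. C1ra and C1s1 kept 0.910, where C1s1 was the gene in place 2 among all genes. In the plot of paired patterns, C1ra lies below C1s1 in NRAS_MEL (-2.41 and -1.28), D6_MEL (-2.49 and -1.35) and the array labelled Heart (-2.71 and -1.46).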

How the data were processed

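Each of 11 mouse RNA samples was hybridised once, with a mouse embryo reference, to a 2-colour cDNA array. Per the labels' protocols, RNA was extracted with Trizol and dyes were incorporated directly during reverse transcription. The authors deposited log ratios for 15247 probes, 15170 to 15210 per array, taken here as log2. For their base, direction, background correction and normalization, the setting is not stated in the labels or headers. Deposited column medians were -0.035 to 0.030.

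Signs were turned, since for 4 organ marker lists the array farthest from the median lay below it as deposited. Arrays were centred on their medians, and probes with 1 annotated gene (9600 of 15247, 214 with several genes and 5433 unlisted) were averaged to 7114 genes with pandas 2.3.3 and numpy 2.4.6 in Python 3.11.15. Differences of at least 2-fold were counted over all genes, with no p-value. The counting was tested on simulated data. Signal intensities were not used, so the signal over background is unknown.

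The 8 genes, the 13 lists and 12 marker lists were chosen with earlier results of these data known. Genes named beside the 8 are the 3 most correlated with each, the 4 highest in the array labelled Lung and the 4 with the largest HRAS_MEL difference from D6_MEL in each list, and all markers. Slc40a1 was named after its values were seen. Alternatives were other centring, quantile normalization, probe summaries, thresholds, log base, sign and control arrays.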

Additional observations from a re-analysis of the deposited data

How the results depend on the processing

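No paired analysis was possible because each group has 1 array. With the sign as deposited, every direction turns by construction: the 8 genes counted 0 higher and 8 lower in the array labelled Lung, 0 higher and 3 lower in HRAS_MEL against the median, 0 higher and 3 lower against D6_MEL, 1 higher and 3 lower against NRAS_MEL, and 0 higher and 1 lower in NRAS_MEL against D6_MEL. With the array labelled Melan A in place of D6_MEL, HRAS_MEL had 1 higher and 4 lower, with Serping1 at -3.26 and C1ra at 0.90, and NRAS_MEL had 4 lower. A threshold of 3-fold left 1 gene higher in HRAS_MEL against the median and 0 in NRAS_MEL against D6_MEL. Quantile normalization also left 0 in NRAS_MEL against D6_MEL. Natural logarithms added lower genes in HRAS_MEL, to 1 against D6_MEL, 1 against the median and 2 against NRAS_MEL. Over all genes, HRAS_MEL minus D6_MEL had 370 higher and 418 lower genes, against 159 and 130 at 3-fold, 719 and 820 with natural logarithms, and 840 and 1027 with the array labelled Melan A in place of D6_MEL. HRAS_MEL minus NRAS_MEL had 359 and 302, against 119 and 81 at 3-fold and 711 and 691 with natural logarithms. NRAS_MEL minus D6_MEL had 174 and 311, against 46 and 77 at 3-fold, 535 and 681 with natural logarithms, and 929 and 1109 with the array labelled Melan A as control, while the array labelled Heart as control gave 282 higher. HRAS_MEL against the median had 284 and 119, against 114 and 21 at 3-fold and 555 and 411 with natural logarithms. The array labelled Lung had 823 and 583, against 475 and 208 at 3-fold, and natural logarithms gave 1076 lower. Of the recounts of the 8 genes, 59 stayed within 1.5 times and 19 did not, and of the recomputed single values 472 moved by less than the spread between probes, 71 by more and 1 reversed. The cause of these shifts was not tested. With 1 array a group, 1 probe a gene and no signal intensities, the error of a single value is unknown.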
